A study of Mus musculus with 6 samples.

Results

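The proteins that read and erase N6-methyladenosine (m6A) were followed as RNA in mouse embryonic stem cells whose m6A writer had been altered. The 10 genes were taken by symbol from the count tables: the YTH-domain readers Ythdf1, Ythdf2, Ythdf3, Ythdc1 and Ythdc2, the demethylases Alkbh5 and Fto, and the KH-domain readers Igf2bp1, Igf2bp2 and Igf2bp3. All 10 were among the 24984 symbols counted, and all 10 passed the filter on low counts that left 15663 genes. The 6 libraries came from total RNA, depleted of ribosomal RNA, of the line E14TG2a grown in N2B27, a serum-free medium. There were 2 libraries each of WT cells, of a METTL3 knockout line made with CRISPR/Cas9 (KO) and of a line in which the METTL3 D395A substitution had been introduced by targeted integration (D395A). The series was designed around m6A and circular RNA, and gene counts alone are analysed here. The labels name no separate clones, so genotype and the history of a line cannot be told apart, and nothing says whether both libraries of each group were grown separately. The p-values therefore measure only the spread between these libraries, which may be technical.

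METTL3 carries the methyltransferase activity of the m6A writer complex of messenger RNA. YTH-domain proteins bind the methylated base directly: the cytoplasmic YTHDF proteins are known for directing methylated mRNA to decay or translation, the nuclear YTHDC1 for roles in splicing, export and chromatin-bound RNA, and YTHDC2, an RNA helicase, for meiotic entry. IGF2BP proteins bind and stabilise many mRNAs, methylated ones among them, and are abundant in embryonic cells. ALKBH5 and FTO belong to the AlkB family of iron-dependent dioxygenases and remove the mark.

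Gene counts per library ranged from 22859491 to 40476809, and levels are given as CPM, counts relative to the library total after scaling by trimmed means (TMM). The targeted gene Mettl3 stood at 28.5 and 31.6 CPM in the WT libraries, 7.82 and 6.17 CPM in the KO libraries and 21.1 and 23.4 CPM in the D395A libraries. The substitution itself cannot be seen in gene counts. All 8 embryonic stem cell markers examined had counts in every group, with summed levels of 4059.9 to 4117 CPM in WT and 4782 to 4808 CPM in KO, while D395A had 1921 to 1984 CPM. Single markers differed in direction: Nanog stood at 1545 and 1609 CPM in KO against 931 and 910 CPM in WT, Tdgf1 at 512 and 486 CPM against 761 and 788 CPM, and Sox2 in D395A, at 311 and 286 CPM, overlapped the 280.0 and 302 CPM of WT. The summed level of 6 extraembryonic endoderm markers was 11.7 to 12.3 CPM in WT and 24.5 to 30.6 CPM in KO, while D395A had 40.7 to 44.0 CPM. Most of that sum in the altered lines was Dab2 (16.5 to 25.4 CPM) and, in D395A, Foxa2 (20.2 and 22.5 CPM), whereas the lineage regulators Gata4 and Gata6 were lower in all 4 libraries of the altered lines than in WT. Fibroblast markers (7) summed to 3.47 to 7.39 CPM across the libraries, with Col3a1 and Lum at 0 in WT and KO, Dcn at 0 in WT and Postn at 0 in KO. Sums of neural (6) and trophoblast (6) markers ranged from 55.4 to 90.3 CPM and from 62.5 to 83.8 CPM, with Neurog2 at 0 in WT and Elf5 at 0 in D395A. Single markers in these sums moved in opposite directions. In D395A, Pax6 stood at 10.6 and 11.3 CPM against 1.18 and 1.41 CPM in WT, but Tubb3 at 17.3 and 17.6 CPM against 45.8 and 42.8 CPM. Cdx2 stood at 3.11 and 2.72 CPM in D395A against 0.123 and 0.055 CPM in WT, but Eomes at 1.75 and 1.64 CPM against 14.1 and 13.3 CPM. In bulk RNA, a shift in the mix of cells and a change of level per cell cannot be told apart, and the part of these marker differences in the results was not tested. Reads that the counting assigned to no feature took 30.2% of the total in both WT libraries. They took 31.1% and 22.3% in KO and 37.3% and 33.8% in D395A, and their part in the results was not tested either. Despite the depletion, the ribosomal RNA precursor Rn45s held 10.8% and 11.2% of the gene counts in the WT libraries. Its share was 16.7% and 15.7% in KO and 14.3% and 13.9% in D395A, and an alternative fit left it out.

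The promoters of Ythdf1, Ythdf2 and Ythdc1 are shown because these 3 readers had the highest rises against WT in KO. Each line gives the 200 bases directly upstream of the outermost start in the GENCODE annotation, 5′ to 3′ on the strand of the gene, cut from the RefSeq promoter windows (GRCm38.p6). Capitals mark matches to the Sp1 box (CCGCCC or GGGCGG), the CCAAT box (CCAAT or ATTGG), the ETS core (CCGGAA or TTCCGG), the E box (CACGTG) and the TATA box (TATAAA or TTTATA) on either strand.
Ythdf1, chr2:180920950-180921149, minus strand: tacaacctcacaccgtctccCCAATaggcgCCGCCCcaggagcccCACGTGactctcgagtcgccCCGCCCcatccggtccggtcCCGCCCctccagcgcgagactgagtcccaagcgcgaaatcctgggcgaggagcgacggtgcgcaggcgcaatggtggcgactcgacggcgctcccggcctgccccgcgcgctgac
Ythdf2, chr4:132212304-132212503, minus strand: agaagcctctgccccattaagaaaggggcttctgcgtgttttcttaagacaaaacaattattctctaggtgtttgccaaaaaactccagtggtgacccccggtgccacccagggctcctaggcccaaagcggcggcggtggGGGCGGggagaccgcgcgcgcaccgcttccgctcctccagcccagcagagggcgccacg
Ythdc1, chr5:86804021-86804220, plus strand: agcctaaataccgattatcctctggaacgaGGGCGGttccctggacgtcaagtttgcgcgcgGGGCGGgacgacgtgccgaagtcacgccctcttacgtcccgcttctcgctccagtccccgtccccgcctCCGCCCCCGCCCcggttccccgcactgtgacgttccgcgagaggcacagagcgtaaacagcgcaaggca
All 3 stretches were rich in G and C, at 72.0%, 61.5% and 66.0%, and none held a TATA box match. Of the 10 genes, 7 had a RefSeq promoter window of 300 bases. In these windows the Sp1 box matched 3 times for Ythdf1, 2 times for Ythdf2 and 5 times for Ythdc1, but also 2 times each for Alkbh5 and Igf2bp2, and 0 times for Fto and Igf2bp3. It was present in 35.7% of all 32851 windows. The CCAAT box matched in the windows of Ythdf1, Alkbh5 and Igf2bp3 (37.4% of all windows), and the E box in those of Ythdf1 and Igf2bp3 (7.15% of all windows). The ETS core and the TATA box matched in none of the 7, against 14.9% and 13.6% of all windows. In the printed stretches no matches overlap, and a match is a string of letters, not a bound site.

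The comparison of KO with WT asked how RNA of the readers and erasers stood in cells without intact METTL3. All 5 YTH-domain readers rose, Alkbh5, Igf2bp1 and Igf2bp3 fell, and Fto and Igf2bp2 did not pass the test. Ythdf2 had the highest rise, to 2.46 times its WT level, and Alkbh5 the deepest fall, to 0.465 times. That is 5 members higher and 3 lower, where 33.6% of all genes tested were higher and 32.6% lower, or 66.2% together, so a call as such was common here. The median log2 fold change of the 10 was 0.21 against 0.01 over all genes, and the median size regardless of sign was 0.62 against 0.56. A change of at least 2-fold was called for 2 members and for 24.3% of all genes. The libraries of KO and WT did not overlap for 8 of the 10 members, as for 83.9% of all genes. Calls are an adjusted p under 0.05 in edgeR's quasi-likelihood test with Benjamini-Hochberg adjustment over all genes.

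The comparison of D395A with WT put the same question to the line with an altered catalytic motif. The 5 YTH-domain readers again rose and Alkbh5 and Igf2bp1 fell, while Igf2bp3, Igf2bp2 and Fto were higher than in WT. This made 8 members higher and 2 lower, where 36.3% of all genes were higher and 34.0% lower, or 70.3% together. At least 2-fold changes were called for 2 members and for 29.0% of all genes. All 10 had libraries that did not overlap those of WT, as had 85.3% of all genes. Median values were 0.25 for the members and 0.02 for all genes, and 0.68 and 0.60 regardless of sign. Both comparisons share the same 2 WT libraries, so their values are given side by side and their likeness is not a separate result. The calls of Ythdc2, Fto and Igf2bp2 in D395A each ended without WT replicate 1, without WT replicate 2 or without D395A replicate 2, which left 5 members called higher. The fold changes of these 3 genes stayed near their values without either WT library, and that of Fto went from 0.21 to 0.11 without D395A replicate 2.

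**Figure D1:**
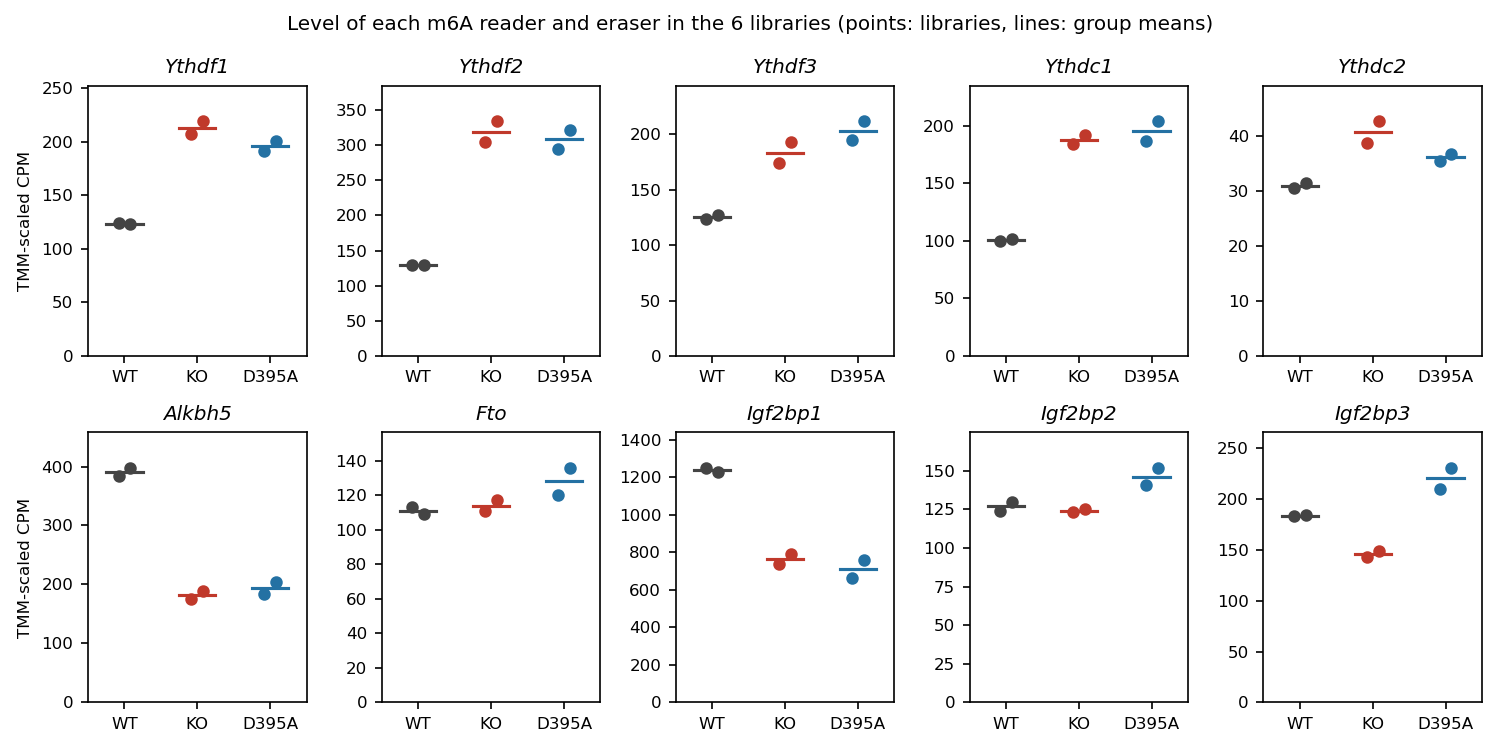
TMM-scaled CPM (vertical axes from 0) of each of the 10 genes in WT, KO and D395A; points are single libraries and lines are means of 2 libraries. The 5 YTH-domain readers sit higher in both altered lines than in WT, Alkbh5 and Igf2bp1 sit lower, and Igf2bp3 lies below WT in KO and above it in D395A.

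Among the cytoplasmic readers, Ythdf2, which recruits the CCR4-NOT deadenylase to methylated mRNA, moved furthest. It is a minus-strand gene on chromosome 4 (GRCm38, 132184912 to 132212303). Its level was 129.6 and 129.5 CPM in the WT libraries, 304 and 334 CPM in the KO libraries and 294 and 322 CPM in the D395A libraries. All 4 libraries of the altered lines lay above both WT libraries, and the ranges of KO and D395A overlapped. The log2 fold change was 1.30 ± 0.07 (SE of the edgeR fit) in KO (adjusted p = 9.4e-09) and 1.25 ± 0.07 in D395A (adjusted p = 1.1e-08), and D395A differed from KO by -0.05 ± 0.07 (adjusted p = 0.58). Of its 50-base stretches, 7.49% also occur in transcripts annotated as Gm6823 or Gm8401, neither of which has a row in the count tables; a read from such a stretch has more than 1 possible source.

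Ythdf1, known for promoting translation of methylated mRNA, lies on the minus strand of chromosome 2 (180904377 to 180920949). It stood at 124 and 123 CPM in the WT libraries, 207 and 219 CPM in the KO libraries and 191 and 200.2 CPM in the D395A libraries. WT lay apart from both altered lines, and D395A lay just under KO without overlap. The rise was 0.79 ± 0.06 on the log2 scale in KO (adjusted p = 2.3e-07) and 0.67 ± 0.06 in D395A (adjusted p = 1e-06). The difference of -0.12 ± 0.06 between the altered lines did not pass the test (adjusted p = 0.12), although it did without D395A replicate 2 (-0.16, adjusted p = 0.044) and with DESeq2 (-0.14, adjusted p = 0.049).

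Ythdf3, which acts together with the other YTHDF proteins, is a plus-strand gene of chromosome 3 (16183212 to 16217037). Its libraries held 124 and 127 CPM in the WT libraries, 174 and 193 CPM in the KO libraries and 195 and 212 CPM in the D395A libraries. Here D395A was the higher of the altered lines, with its lower library just above the upper KO library. The rise was 0.55 ± 0.07 in KO (adjusted p = 1.8e-05) and 0.70 ± 0.07 in D395A (adjusted p = 2e-06), and the difference between the lines was 0.15 ± 0.07 (adjusted p = 0.099), or 0.21 without D395A replicate 1 (adjusted p = 0.025). None of the 50-base stretches of Ythdf1 and Ythdf3 occurred in transcripts of another gene, and none of Ythdf2 occurred in the other 2, so at that length the family members can be told apart.

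Because levels of different genes can be compared only per length, CPM was divided by the length of all annotated exons. On that scale the 3 YTHDF genes summed to 88.7 and 89.1 CPM per kb for the WT libraries, 162 and 175 for the KO libraries and 158 and 170.4 for the D395A libraries. Ythdf2 made up 32.0% and 31.8% of that sum for the WT libraries, 41.2% and 41.6% for the KO libraries and 40.5% and 41.4% for the D395A libraries. The share of Ythdf1 was 42.0% and 41.6% for the WT libraries, 38.7% and 37.8% for the KO libraries and 36.5% and 35.4% for the D395A libraries. Ythdf1 thus held the greater share in both WT libraries, and Ythdf2 in all 4 libraries of the altered lines. This order was the same with the length of the longest transcript in place of all exons, where Ythdf2 held 33.2% and 33.0% in WT and 41.9% to 43.1% in the altered lines.

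**Figure D2:**
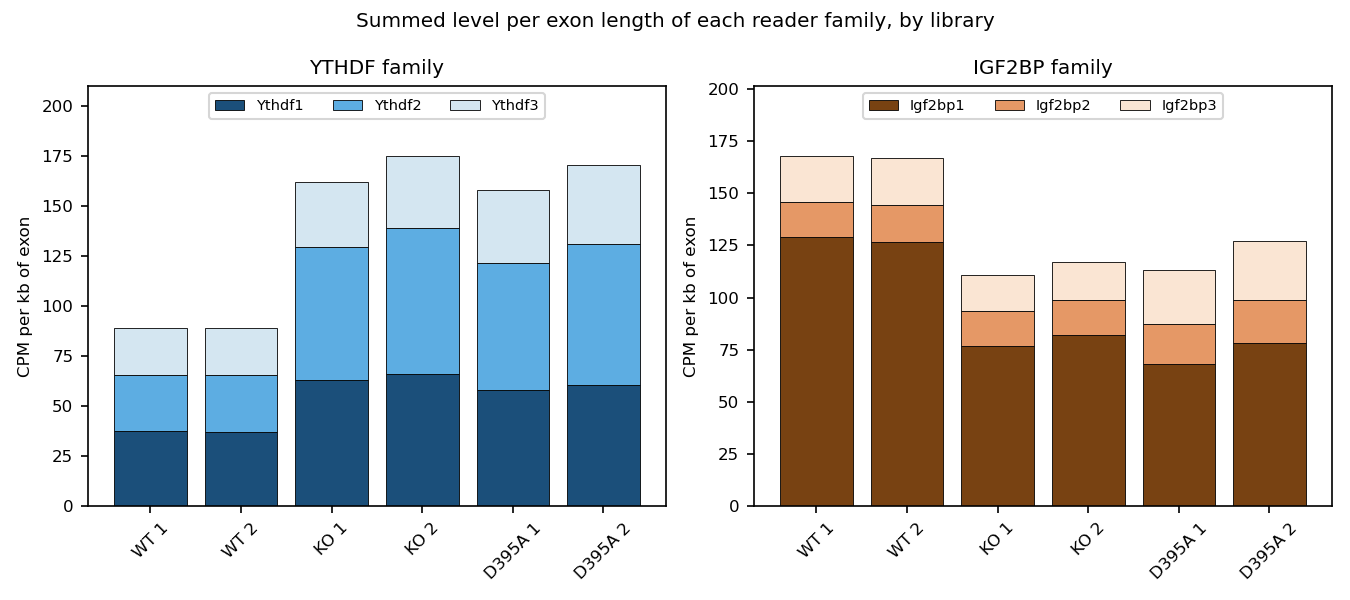
Stacked bars give the summed level of the YTHDF genes (left) and the IGF2BP genes (right) in CPM per kb of exon for each of the 6 libraries, with 1 colour per gene. The YTHDF sum is 88.7 and 89.1 in WT and at least 158 in the altered lines, and the Ythdf2 section is taller there; the IGF2BP sum is lower there, with a smaller Igf2bp1 section.

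The nuclear reader Ythdc1 (chromosome 5, plus strand, 86804221 to 86836659) followed the YTHDF genes. It stood at 99.7 and 102 CPM in the WT libraries, 184 and 192 CPM in the KO libraries and 187 and 204 CPM in the D395A libraries. KO and D395A overlapped, and both lay apart from WT. The rise was 0.90 ± 0.07 in KO (adjusted p = 1.1e-07) and 0.96 ± 0.07 in D395A (adjusted p = 5.6e-08), with a difference of 0.06 ± 0.07 between the lines (adjusted p = 0.47). Of its exon bases, 4.62% are shared with Gm43055 on the same strand.

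Ythdc2 (chromosome 18, plus strand, 44827746 to 44889724) had the lowest level of the 10 and moved less. It held 30.5 and 31.4 CPM in the WT libraries, 38.8 and 42.7 CPM in the KO libraries and 35.5 and 36.8 CPM in the D395A libraries, so the groups lay in the order WT, D395A, KO without overlap. The rise was 0.40 ± 0.07 in KO (adjusted p = 3e-04) and 0.23 ± 0.07 in D395A (adjusted p = 0.013). The D395A value kept about its size but not its call when an arm was reduced to 1 library: it was 0.20 without WT replicate 1 (adjusted p = 0.096), 0.24 without WT replicate 2 (adjusted p = 0.052) and 0.20 without D395A replicate 2 (adjusted p = 0.069). It was 0.15 with scaling factors computed without chromosomes 8, 11 and Y (adjusted p = 0.081) and 0.21 with DESeq2 (adjusted p = 0.05 after rounding, not under the threshold). D395A differed from KO by -0.17 ± 0.07 (adjusted p = 0.066), or by -0.24 without KO replicate 1 (adjusted p = 0.038), and this difference passed in 7 of 18 alternatives.

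The erasers parted. Alkbh5, a nuclear demethylase, is a plus-strand gene of chromosome 11 (60536381 to 60558512) and stood at 384 and 398 CPM in the WT libraries, 175 and 189 CPM in the KO libraries and 184 and 204 CPM in the D395A libraries. The altered lines overlapped each other and lay far under WT. The log2 fold change was -1.10 ± 0.07 in KO (adjusted p = 3.5e-08) and -1.01 ± 0.07 in D395A (adjusted p = 6.7e-08), with 0.09 ± 0.07 between the lines (adjusted p = 0.31), or 0.16 without D395A replicate 1 (adjusted p = 0.043). Fto (chromosome 8, plus strand, 91313525 to 91668439) held 113 and 109 CPM in the WT libraries, 111 and 117 CPM in the KO libraries and 120.4 and 136 CPM in the D395A libraries. KO overlapped WT, with a difference of 0.03 ± 0.07 (adjusted p = 0.70) that changed sign to -0.01 without KO replicate 2 and to -0.02 with scaling factors computed without chromosomes 8, 11 and Y. D395A exceeded WT by 0.21 ± 0.07 (adjusted p = 0.020), but this was 0.23 without WT replicate 1 (adjusted p = 0.08), 0.18 without WT replicate 2 (adjusted p = 0.16), 0.11 without D395A replicate 2 (adjusted p = 0.14) and 0.13 under that scaling (adjusted p = 0.11). D395A and KO differed by 0.17 ± 0.07 (adjusted p = 0.058), or 0.26 without D395A replicate 1 (adjusted p = 0.0045), and this difference passed in 5 of 18 alternatives.

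Per kb of exon, Alkbh5 exceeded Fto 7.37-fold and 7.92-fold in the WT libraries, 3.44-fold and 3.51-fold in KO, and 3.33-fold and 3.25-fold in D395A. All 4 ratios of the altered lines lay under both WT ratios. With the length of the longest transcript the ratios were 2.78 and 2.99 in WT and 1.23 to 1.32 in the altered lines, since the exon union of Fto, 13031 bases, is far longer than its longest transcript of 4707 bases. The size of the ratio thus depends on the length chosen, and its fall appeared with both.

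Both erasers lie on chromosomes whose genes stood lower on the whole in the altered lines. Over all 1302 tested genes of chromosome 11 the median log2 fold change was -0.42 in KO and -0.49 in D395A, and 54.6% and 58.1% of them were called lower. On chromosome 8, with 812 tested genes, the medians were -0.48 and -0.35. Relative to the median of its own chromosome, Alkbh5 stood at -0.69 in KO and -0.52 in D395A, and Fto at 0.51 and 0.56. The 10 genes nearest to Fto had a median of -0.49 in KO (2 rose and 5 fell) but of 0.45 in D395A (5 rose and 3 fell), which is above the 0.21 of Fto itself. Igf2bp1, also on chromosome 11, stood at -0.28 in KO and -0.31 in D395A relative to the median of that chromosome. Of the 10 tested genes nearest to Alkbh5, 5 on each side, 7 fell and 1 rose in KO (median -0.51), and 9 fell and 1 rose in D395A (median -0.64). Around Igf2bp1, 6 fell and 0 rose in KO (median -0.44), and 8 fell and 1 rose in D395A (median -0.90). The part of these chromosome-wide differences in the falls of Alkbh5 and Igf2bp1 was not tested. The YTH-domain genes lie on chromosomes 2, 3, 4, 5 and 18, whose medians lay between 0.05 and 0.16 in both comparisons. The genes nearest to some of these readers were not flat, however. Around Ythdc2, 6 of 10 rose and 0 fell in KO, with a median of 0.64 that exceeds the value of Ythdc2 itself. Around Ythdf3, 8 rose and 2 fell in D395A (median 0.77), and around Ythdf2 3 rose and 1 fell there (median 0.63). In KO the medians around Ythdf3 and Ythdf2 were 0.22 and 0.17. The genes nearest to Ythdf1 had a median of 0.27 in KO (4 rose and 2 fell) but of -0.31 in D395A (2 rose and 4 fell). Near Ythdc1, 4 rose and 5 fell in KO, and 2 rose and 3 fell in D395A (median -0.07). The part of these neighbourhoods in the rises was not tested. Relative to the chromosome medians, Ythdf2 stood at 1.24 in KO and 1.16 in D395A, and Ythdc2 at 0.24 and 0.08.

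**Figure D3:**
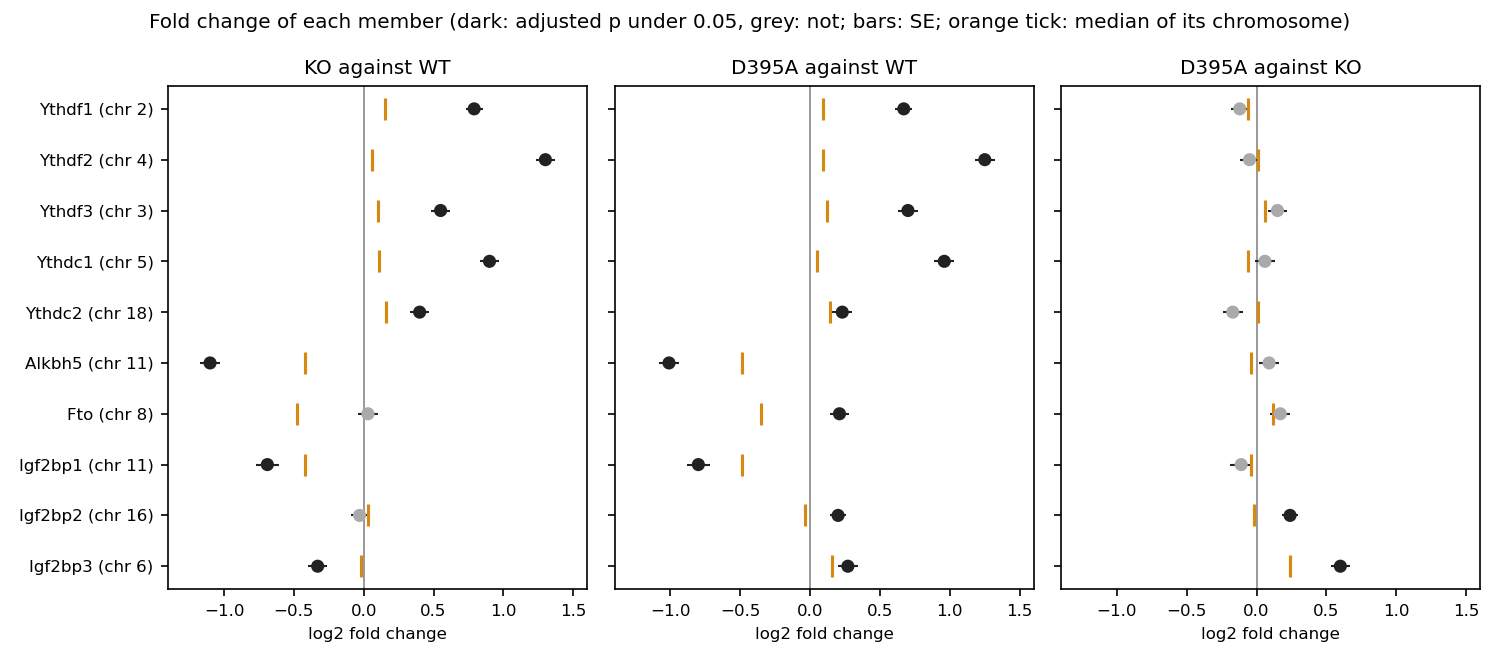
Log2 fold change of each of the 10 genes (horizontal axes) in the KO line relative to WT, the D395A line relative to WT and D395A relative to KO; bars are SE, dark points passed an adjusted p of 0.05, grey points did not, and orange ticks give the median of all tested genes on the chromosome of the gene. In both panels relative to WT, Alkbh5 and Igf2bp1 lie left of the lowered median of chromosome 11 and Fto lies right of that of chromosome 8, and only Igf2bp2 and Igf2bp3 are dark in D395A against KO.

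The IGF2BP genes behaved as 3 separate cases. Igf2bp1 (chromosome 11, minus strand, 95957163 to 96005940) was the most abundant of the 10, with 1249.9 and 1225 CPM in the WT libraries, 739 and 793 CPM in the KO libraries and 661 and 756 CPM in the D395A libraries. All 4 libraries of the altered lines lay under WT, and KO and D395A overlapped. The log2 fold change was -0.69 ± 0.08 in KO (adjusted p = 4.3e-06) and -0.80 ± 0.08 in D395A (adjusted p = 1e-06), with -0.11 ± 0.08 between the lines (adjusted p = 0.24), or -0.22 without D395A replicate 2 (adjusted p = 0.0062).

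Igf2bp2 (chromosome 16, minus strand, 22059009 to 22163299) stood at 124 and 129.9 CPM in the WT libraries, 123 and 125 CPM in the KO libraries and 140.5 and 152 CPM in the D395A libraries. KO overlapped WT (-0.03 ± 0.06, adjusted p = 0.65), and D395A lay above both. Its difference from WT was 0.20 ± 0.06 (adjusted p = 0.013), or 0.17 without WT replicate 1 (adjusted p = 0.15), 0.23 without WT replicate 2 (adjusted p = 0.058), 0.14 without D395A replicate 2 (adjusted p = 0.051) and 0.12 with scaling factors computed without chromosomes 8, 11 and Y (adjusted p = 0.094). Against KO the difference was 0.24 ± 0.06 (adjusted p = 0.0082), or 0.22 without KO replicate 1 (adjusted p = 0.057).

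Igf2bp3 (chromosome 6, minus strand, 49085223 to 49214957) changed in opposite directions in the altered lines. It held 183 and 184 CPM in the WT libraries, 143 and 149 CPM in the KO libraries and 210.4 and 231 CPM in the D395A libraries, so the groups lay in the order KO, WT, D395A with no overlap. It fell by 0.33 ± 0.07 on the log2 scale in KO (adjusted p = 0.00078) and rose by 0.27 ± 0.07 in D395A (adjusted p = 0.0028), and D395A exceeded KO by 0.60 ± 0.07 (adjusted p = 9.5e-06). Of its exon bases, 18.74% overlap exons of Malsu1 on the opposite strand, and although the library kit keeps strand, the strand setting of the counting is not known here, so reads of the pair may not be fully separated. Malsu1, a mitochondrial ribosome assembly factor, stood at 31.4 and 28.5 CPM in the WT libraries, 27.2 and 22.5 CPM in the KO libraries and 36.0 and 29.9 CPM in the D395A libraries. Malsu1 differed between D395A and KO by 0.40 ± 0.11 (adjusted p = 0.0076). It was lower in KO than in WT by 0.27 ± 0.11 (log2 fold change -0.27, adjusted p = 0.038). Genes around Igf2bp3 differed between the altered lines too: of the 10 nearest tested genes, 8 were higher and 1 lower in D395A than in KO, with a median of 0.93, while the median of chromosome 6 was 0.24. In KO against WT, 5 of these 10 fell and 0 rose, with a median of -0.5, which is below the value of Igf2bp3 itself. In D395A against WT, 1 rose and 2 fell (median 0.1). Relative to the chromosome median, Igf2bp3 stood at 0.36 in D395A against KO, at 0.11 in D395A against WT and at -0.31 in KO against WT. The part of this neighbourhood in the differences of Igf2bp3 was not tested.

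Summed per kb of exon, the IGF2BP genes reached 168 and 167 CPM per kb for the WT libraries, 111 and 117 for the KO libraries and 113 and 127 for the D395A libraries. Igf2bp1 made up 76.7% and 75.9% of the sum for the WT libraries, 69.1% and 69.9% for the KO libraries and 60.4% and 61.5% for the D395A libraries. Igf2bp3 took 13.3% and 13.5% for the WT libraries, 15.9% and 15.6% for the KO libraries and 22.8% and 22.3% for the D395A libraries. Igf2bp1 was thus the main IGF2BP transcript in all 6 libraries, also with the longest transcript as length (50.7% to 68.9%). Genes tied to IGF2BP expression through LIN28 and the let-7 microRNA were uneven. Of 4 listed, 1 rose and 2 fell in KO, and 3 rose and 0 fell in D395A. DESeq2, limma and an unadjusted edgeR p also gave 0 lower in D395A. Over all genes, 33.6% were higher and 32.6% lower in KO, and 36.3% and 34.0% in D395A. Lin28a, which blocks let-7 maturation, stood at 80.6 ± 7.79 CPM in WT (mean ± SD, n = 2) and 8.46 ± 1.35 CPM in KO (-3.25 ± 0.12, adjusted p = 2.4e-10), and D395A had 138 ± 14.2 CPM (0.78 ± 0.09, adjusted p = 7.6e-06). Hmga2, a let-7 target that encodes a chromatin protein, had a WT mean of 20.5 ± 1.87 CPM. It fell in KO to 12.4 ± 0.297 CPM (-0.73 ± 0.10, adjusted p = 2.2e-05) and rose in D395A to 43.6 ± 4.15 CPM (1.09 ± 0.09, adjusted p = 2.4e-07). Lin28b, in contrast, was called higher in both lines, by 0.30 ± 0.09 in KO and 0.85 ± 0.09 in D395A. The remaining listed gene was called in neither line.

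The direct comparison of D395A with KO asked where the altered lines differed. Igf2bp3 and Igf2bp2 were higher in D395A, and the other 8 members did not pass, with differences from -0.17 to 0.17 on the log2 scale and SE of 0.06 to 0.08. This gave 2 higher and 0 lower, where 26.5% of all genes were higher and 23.8% lower, or 50.4% together, and 15.9% passed at a change of at least 2-fold. By an unadjusted edgeR p, 1 member was lower, Ythdc2. DESeq2 after adjustment also called 1 lower, but a different gene, Ythdf1, and limma called 0. A value that did not pass does not show that the lines were alike. The median size of the difference regardless of sign was 0.14 for the members and 0.37 for all genes. Libraries of the lines did not overlap for 6 members, as for 74.7% of all genes. Single libraries moved these counts: 5 members were higher without D395A replicate 1, 2 were lower without D395A replicate 2, and without KO replicate 1 there was 1 higher and 1 lower.

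In WT the order of levels per kb of exon ran from Igf2bp1 at 128 ± 1.83 CPM per kb (SD, n = 2) through Alkbh5 (65.4 ± 1.62), Ythdf1 (37.2 ± 0.101), Ythdf2 (28.3 ± 0.0153), Ythdf3 (23.4 ± 0.435), Igf2bp3 (22.5 ± 0.0472), Igf2bp2 (17.2 ± 0.528), Fto (8.55 ± 0.221) and Ythdc1 (7.39 ± 0.112) to Ythdc2 (3.48 ± 0.0681). No neighbours in this order overlapped between the 2 WT libraries. In KO and D395A the order began with Igf2bp1, Ythdf2, Ythdf1, Ythdf3 and Alkbh5, so that Alkbh5 went from the second place to the fifth. In D395A the libraries of Igf2bp1 (68.3 to 78.1 CPM per kb) and Ythdf2 (64.2 to 70.5) overlapped. The order depends on the length chosen. With the longest transcript as length, 5 of the 10 genes kept their place in WT, Igf2bp3 moved to the third place (42.2 to 42.3 CPM per kb), and Ythdc1 reached 15.8 to 16.1. The exon lengths come from GENCODE, and the annotation used for counting is not given in the sources used here.

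**Figure D4:**
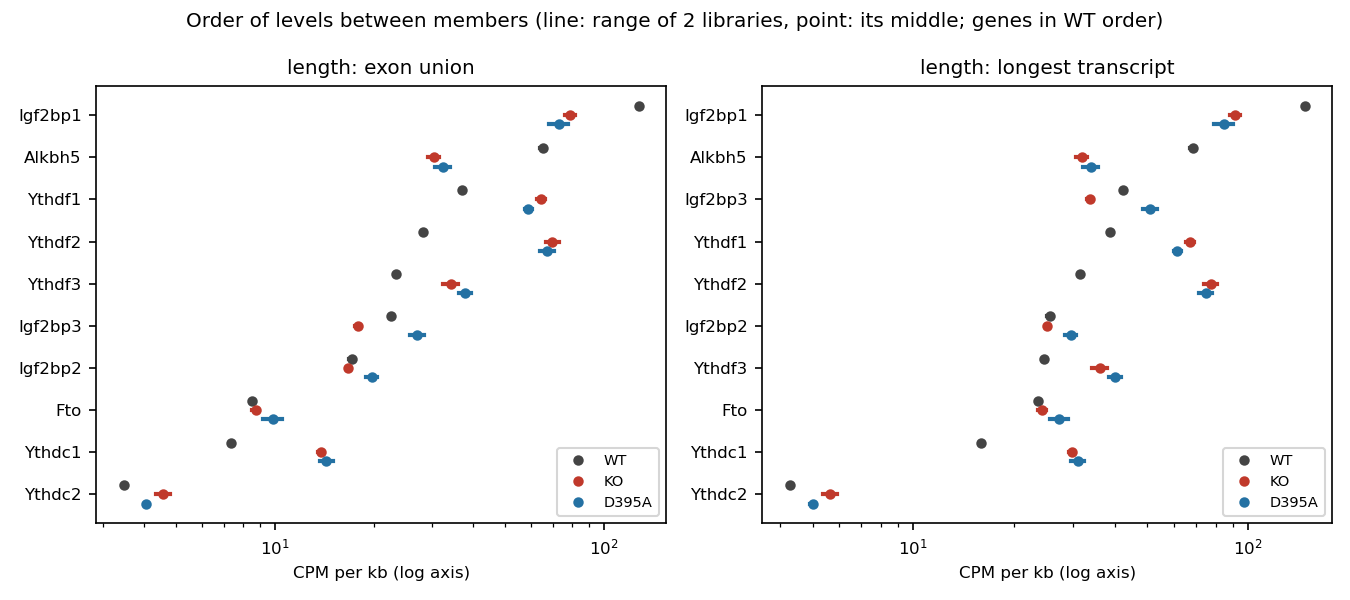
Level of each gene in CPM per kb on a log axis, with all annotated exons (left) or the longest transcript (right) as length; lines span the 2 libraries of a group, points mark the middle, and genes stand in the WT order of each panel. Igf2bp1 is highest and Ythdc2 lowest on both scales, while Ythdf2 passes Alkbh5 in the altered lines.

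Likeness of pattern was measured as the distance between log2(CPM + 0.5) profiles over the 6 libraries, each centred on its mean. Among the members, Fto and Igf2bp2 were closest, at 0.13, and 0.338% of tested genes lay nearer to Fto than Igf2bp2 did. The distance is small for genes that move little. The highest library was 1.25 times the lowest for Fto and 1.23 times for Igf2bp2. Their Pearson correlation over the 6 libraries was 0.89, against 1.0 for Ythdf2 and Ythdc1 and 0.98 for Alkbh5 and Igf2bp1. Ythdf2 and Ythdc1 lay 0.42 apart, with 1.83% of genes nearer to Ythdf2. Alkbh5 and Igf2bp1 also lay 0.42 apart, with 3.22% nearer to Alkbh5. Some other pairs of members were closer than these, among them Ythdf1 with Ythdf3 and Ythdf1 with Ythdc1, each 0.30 apart. Over all genes, the nearest to Ythdf2 were Rnf169, a ubiquitin ligase of the DNA damage response, at 0.068 (66.1 and 66.8 CPM for WT, 158 and 165 CPM for KO, 149 and 170 CPM for D395A), and Rbms1, an RNA-binding protein, also at 0.068. Nearest to Ythdf1 was Tbcel (0.046) and to Ythdc1 Lrrc58 (0.053). Nearest to Alkbh5 was Mcm5, a subunit of the replicative helicase on chromosome 8, at 0.085, and to Igf2bp1 Armcx5 (0.065) and then Gemin5 on chromosome 11 (0.067). Nearest to Igf2bp3 was Tnrc6b, a partner of Argonaute proteins, at 0.062. With 3 groups of 2 libraries many genes share such profiles, and the distances are descriptions.

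The transcripts of the members differed in GGACT, a common form of the m6A consensus. In the longest coding transcript, Alkbh5 held 10 copies (1.75 per kb), Igf2bp1 10 (1.19 per kb), Igf2bp2 5 (1.28 per kb) and Ythdf2 5 (1.21 per kb). The other 6 held 1 to 3 copies, among them 1 each in Ythdf1 (0.314 per kb) and Ythdf3 (0.196 per kb). The median over 14407 tested genes was 1.06 per kb, and 92.6% held at least 1 copy. Both members with the highest fold, Ythdf2 upward and Alkbh5 downward, lay above that median. So did Igf2bp1 and Igf2bp2, of which Igf2bp2 changed by only -0.03 in KO and 0.20 in D395A on the log2 scale. Ythdf1, Ythdf3, Ythdc1 (0.612 per kb) and Ythdc2 (0.416 per kb), which rose as well, lay below it. The copies are letters in a transcript, and methylation was not measured in these files.

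Other genes of the m6A pathway moved in both directions. Calls of either direction were common among all tested genes. The KO line had 33.6% of them called up and 32.6% called down against WT. For D395A these shares came to 36.3% up and 34.0% down. Of 13 writer genes, 5 rose and 5 fell in KO (median -0.02) and 5 rose and 4 fell in D395A (median 0.08). Wtap, the targeting subunit of the writer, rose in both lines (1.41 ± 0.06 and 1.00 ± 0.06), as did Virma, a scaffold subunit, which in KO reached 188 ± 4.37 CPM against 96.1 ± 1.53 CPM (0.97 ± 0.06, adjusted p = 3.6e-08). The list holds subunits of the METTL3 complex and separate methyltransferases with their partners. Named after their values were seen, the 5 rises in KO were Wtap, Virma, Rbm15, Rbm15b and Cbll1, all of the METTL3 complex. The 5 falls in KO were Mettl3 itself, its partner Mettl14 and the separate enzymes Mettl16, Zcchc4 and Pcif1. In D395A the 5 rises were Wtap, Virma, Rbm15b, Trmt112 and Pcif1, of which Trmt112 and Pcif1 lie outside that complex. The 4 falls there were Mettl3, Mettl14, Mettl16 and Zcchc4. Rbm15 and Cbll1 were not called in D395A, and the complex subunit Zc3h13 was called in neither line. Of 7 other AlkB genes, 3 rose and 3 fell in KO, and 2 rose and 2 fell in D395A. Alkbh4, a demethylase of actin, had a WT mean of 10.7 ± 0.738 CPM and rose in KO to 22.7 ± 1.38 CPM (1.09 ± 0.09) and in D395A to 26.0 ± 1.79 CPM (1.28 ± 0.09).

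Decay partners of YTHDF2 and nuclear partners of YTHDC1 were called lower more often than higher against WT. Of 12 decay partners of YTHDF2, 9 fell and 1 rose in KO (median -0.39), and 8 fell and 0 rose in D395A (median -0.34; also 0 by DESeq2, by limma and by an unadjusted edgeR p), beside medians of 0.01 and 0.02 over all genes, of which 32.6% and 34.0% were called lower. Cnot1, the scaffold of the CCR4-NOT deadenylase that YTHDF2 binds, had a WT mean of 1624 ± 17.1 CPM and fell in KO to 666 ± 26.7 CPM (-1.29 ± 0.08) and in D395A to 712 ± 83.1 CPM (-1.19 ± 0.08). Upf1, a decay helicase that fell in KO (-0.89 ± 0.06), Cnot1 and Cnot7 lie on chromosome 8, and Cnot6 and Cnot8 on chromosome 11. On these chromosomes 52.0% to 58.1% of all genes were called lower in either comparison. Cnot10, which fell in D395A (-0.92 ± 0.06, adjusted p = 3.5e-08), lies on chromosome 9. Of 7 nuclear partners of YTHDC1, 5 fell and 1 rose in KO (median -0.27) and 4 fell and 1 rose in D395A (median -0.22). Srsf10, a splicing regulator, fell in both (-0.60 ± 0.06 and -0.41 ± 0.06). Of the 3 partners of YTHDC2, Rbm46, with a WT mean of 0.578 ± 0.157 CPM, rose in KO to 2.06 ± 0.426 CPM (1.83 ± 0.38, adjusted p = 9e-04) and in D395A to 2.19 ± 0.394 CPM (1.92 ± 0.38, adjusted p = 0.00062). Meioc, its meiotic partner, on chromosome 11, with a WT mean of 12.8 ± 0.0316 CPM, fell in KO to 4.07 ± 0.159 CPM (-1.66 ± 0.12) and in D395A to 8.87 ± 0.585 CPM (-0.53 ± 0.11).

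Among 11 other proteins proposed to bind RNA in an m6A-dependent way, 8 fell and 0 rose in KO (median -0.30; also 0 by DESeq2, by limma and by an unadjusted edgeR p), and 5 fell and 1 rose in D395A (median -0.14). Over all genes, 33.6% were higher and 32.6% lower in KO and 36.3% and 34.0% in D395A, with medians of 0.01 and 0.02. Fxr2, a relative of the fragile X protein encoded on chromosome 11, changed by -0.93 ± 0.06 in KO and -1.10 ± 0.06 in D395A. Its relative Fxr1, on chromosome 3, fell in D395A to 187 ± 4.89 CPM, against 326 ± 15.5 CPM in WT (-0.80 ± 0.07, adjusted p = 2.6e-07). Hnrnpa2b1, a nuclear RNA-binding protein, rose in D395A by 0.31 ± 0.07 (adjusted p = 0.001) and fell in KO by 0.30 ± 0.07 (adjusted p = 0.0017). Of 3 cofactors of IGF2BP proteins, Pabpc1, the cytoplasmic poly(A)-binding protein, rose in both lines (0.28 ± 0.07 and 0.32 ± 0.07), and Matr3 and Elavl1 fell in KO by 0.17 ± 0.06 and 0.20 ± 0.07.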

How the data were processed

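The authors deposited 1 table of raw read counts per gene symbol for each of 6 libraries. Per the submitters' processing notes, Trimmomatic 0.36, STAR 2.7 and HTSeq 0.11.2 were used with the mouse build mm10. The strand setting of the counting and its annotation were not given in the sources used here. HTSeq's summary lines, 29.0% to 44.2% of all lines' total, stayed out of library sizes and tests. The count test was that of edgeR 4.0.16 under R 4.3.3 (filterByExpr, TMM factors, quasi-likelihood F test, all 6 libraries in 1 model, no covariates, 3 residual degrees of freedom), with Benjamini-Hochberg adjustment over 15663 genes. The scripts were tested on simulated data. Fold changes are on the log2 scale with the SE of the model. A single count equalled 0.0246 to 0.0426 CPM. Replicates differed by more than sampling noise (chi-square per degree of freedom 3.19 in WT, 6.48 in KO and 11.1 in D395A). Positions and lengths came from GENCODE M21 (GRCm38, the same build as mm10). The members and lists were chosen with earlier results of these data known. All members are named. Other pathway lists are represented by genes among the 2 largest rises or 2 largest falls past the test in a comparison with WT. Exceptions, named after their values were seen, are the writer genes Rbm15, Cbll1, Zc3h13, Zcchc4, Trmt112 and Pcif1. The decay partners Cnot6, Cnot7 and Cnot8 are also named outside this rule. Genes of like pattern are named only among the 3 nearest to a member. Malsu1 was added after its overlap with Igf2bp3 was seen. Alternatives covered scaling, filters, DESeq2 1.42.0, limma 3.58.1, the replicate block, left-out libraries and chromosome medians.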

Additional observations from a re-analysis of the deposited data

Results flagged for a closer look

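Igf2bp3 differed between the altered lines: its change against WT in D395A exceeded that in KO by 0.60 ± 0.07 (edgeR quasi-likelihood test of D395A against KO, adjusted p = 9.5e-06), with both D395A libraries above and both KO libraries below WT. This call held in all 18 alternatives with a test, with values from 0.52 to 0.66. Relative to the median of chromosome 6 the difference was 0.36, a value with no test. Of the 10 tested genes nearest to Igf2bp3, 8 were higher and 1 lower in D395A than in KO. Their median of 0.93 exceeded the value of Igf2bp3, and the part of this neighbourhood was not tested. Igf2bp2 differed in the same sense by 0.24 ± 0.06 (adjusted p = 0.0082), with values from 0.17 to 0.29 over the alternatives, 2 of which ended the call (without KO replicate 1, and with KO and D395A paired crosswise).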

How the results depend on the processing

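Of 520 member values recomputed under 18 alternatives with a test, 483 kept direction and side of the threshold, 15 lost the call, 17 gained one and 5 changed sign, all 5 of them values that did not pass. The rises of Ythdf1, Ythdf2, Ythdf3 and Ythdc1 and the falls of Alkbh5 and Igf2bp1 against WT kept their calls in both lines under all 17 alternatives run for those comparisons. In D395A against WT, members called higher were 5 in place of 8 with scaling factors computed without chromosomes 8, 11 and Y, and 5 to 8 when single libraries were left out. In D395A against KO, members called lower were 1 in place of 0 with RLE factors, no filter, the stricter filter, only the groups compared, scaling without chromosomes 8, 11 and Y, without Rn45s and with DESeq2, and 0 to 2 without single libraries, while members called higher were 1 to 5. The cause was not tested. Sign changes among uncalled values were Fto in KO (-0.02 with the chromosome-reduced scaling, -0.01 to 0.08 without single libraries) and, in D395A against KO, Ythdf2 (-0.12 to 0.02) and Ythdc1 (-0.01 to 0.12) without single libraries. With the longest transcript as length, 5 of 10 members kept their place in WT. Replicate numbers are shared across groups, but the labels do not pair them, and the correlation of deviations was -0.01 for KO and WT, 0.00 for D395A and WT and -0.12 for KO and D395A. With the replicate block, 10220, 10843 and 7832 genes were called in place of 10368, 11011 and 7889, and no member changed its call. With KO and D395A paired crosswise, an alternative chosen after seeing the data, 7146 genes and 1 member (higher) were called. Where an arm was left with 1 library, that library was assumed to vary like the others. The lowest count of any member in any library was 834.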
